A study of Mus musculus with 18 samples.

Results

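Islet expression of the enzymes and regulators of cholesterol synthesis and lipogenesis was described in mice with a beta cell knockout of TRAF2 or TRAF3, on chow and on a high-fat diet (HFD). The module was a list of 30 genes named by their roles. A member was counted as measured when a probe set of the array carried its symbol and no other, and the probe set with the highest mean over the 18 arrays was taken. This gave 27 members among 22180 genes, each with 1 such probe set. Idi1 and Scd2 appeared only on probe sets with several symbols, and Acat2 on none in the annotation used here.

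Cholesterol is built from acetyl-CoA, first along the mevalonate pathway to farnesyl units and then from squalene through a chain of sterol intermediates. When sterols in the endoplasmic reticulum are scarce, the membrane-bound factor SREBP2 (Srebf2) is cleaved and moves to the nucleus, where it raises transcription of these enzymes and of the low-density lipoprotein receptor, while Insig1 holds the factor back when sterols are plentiful. SREBP1 (Srebf1) and the glucose-responsive factor ChREBP (Mlxipl) act mainly on fatty acid synthesis, in which cytosolic acetyl-CoA is carboxylated, built into palmitate, elongated and desaturated. In beta cells, insulin granules and their release depend on membrane cholesterol, and ChREBP takes part in the response to glucose.

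Total islet RNA was hybridised to 1-colour Affymetrix whole-transcript arrays, 3 per group in 6 groups, to study activation of the kinase NIK in beta cells. All mice were on a C57BL/6 background, of both sexes and 16 weeks old. Knockouts carried TRAF2loxP/loxP or TRAF3loxP/loxP alleles with RIPCre (Cre under the rat insulin promoter), so the deletion is directed at beta cells while whole islets were profiled. Controls were floxed littermates, and the labels give neither their floxed gene nor whether they carried Cre. Each genotype was studied on chow and on an HFD with 45% of its energy as fat, fed for 8 weeks from week 8. The labels do not state that each array came from separate animals, so p-values measure the spread between these samples, part of which may be technical. Arrays of both sexes in 5 of the 6 groups show that these groups hold more than 1 animal. Values are log2 signals, and a difference of 1 is a doubling. In RNA from whole islets, fewer cells of a type and less RNA per cell cannot be told apart.

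Most endocrine transcripts measured were bright on every array, with Ins2 between 11.0 and 12.1 and Iapp between 12.6 and 12.9, though Ghrl lay between 4.91 and 6.57. Most acinar enzymes were bright too, with Cpa1 at 12.8 or more, though Amy2b lay between 2.99 and 7.45. The adipocyte hormone genes Adipoq and Lep lay near background, between 3.44 and 4.08 and between 3.26 and 4.11. Lpl and Fabp4 were the brightest of the 9 adipocyte markers, between 8.73 and 10.06 and between 6.71 and 9.99, and Car3 reached 7.44. By Xist and Y-linked transcripts, replicate 1 was female and the other replicates male in each of the 3 chow groups. All 3 HFD controls were female, and in both HFD knockout groups replicate 1 was male and the others female. Sex was therefore unevenly spread between the diets, and HFD replicate 3 of the controls and of the TRAF3 knockouts had the narrowest signal ranges (interquartile ranges of 3.31 and 3.19, against 3.38 to 3.60 on the other arrays).

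On chow, 3 enzymes of cholesterol synthesis rose in TRAF3 knockout islets relative to controls, and 2 other members fell. Mvd, which decarboxylates mevalonate pyrophosphate, rose 1.54-fold, Hsd17b7, a 3-ketosteroid reductase of the demethylation steps, rose 1.82-fold, and Sc5d, a late sterol desaturase, rose 1.46-fold. The fatty acid elongase Elovl6 fell 1.61-fold and Mlxipl fell 5.17-fold. These 3 of 27 members compare with 6.33% of all genes called higher, and the 2 of 27 with 4.69% called lower, so the share of members called was of the same order as the background. A call throughout is an adjusted p under 0.05 in limma, after Benjamini-Hochberg adjustment over all 22180 genes.

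Mvd read 6.19, 6.41 and 6.55 on the chow control arrays and 7.13, 6.87 and 7.01 on the chow TRAF3 knockout arrays. All 3 knockout values lay above all 3 control values (log2 difference 0.62 ± 0.14 SE, limma adjusted p = 0.0109, n = 3 per group). Hsd17b7 read 6.17, 7.01 and 7.25 in controls and 7.72, 7.55 and 7.75 in knockouts, again without overlap, with control replicate 1 far below the other controls (0.86 ± 0.26, limma adjusted p = 0.0417). Sc5d read 8.56, 8.79 and 8.94 in controls against 9.30, 9.09 and 9.54 in knockouts, with a narrow gap between the groups (0.54 ± 0.13, limma adjusted p = 0.0138). Without chow control replicate 1 the differences of Mvd, Sc5d and Hsd17b7 were 0.52, 0.44 and 0.54, with limma adjusted p of 0.0576, 0.0724 and 0.208. Mvd also missed the threshold without chow TRAF3 knockout replicate 1 (0.56, limma adjusted p = 0.0559) and Sc5d without its replicate 3 (0.43, limma adjusted p = 0.0896).

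Among the 16 measured enzymes from Hmgcs1 to Dhcr7, 13 had a positive difference between chow TRAF3 knockouts and controls, with a median of 0.34. For comparison, 47.9% of all genes were positive, with a median of -0.01. In 9 of the 16 every knockout array lay above every control array, against 15.9% of all genes. Apart from the 3 called, the enzymes ranged from -0.32 for Fdft1, the squalene synthase, to 0.74 for Fdps, the farnesyl diphosphate synthase. The median was 0.20, with 12 positive, without chow control replicate 1, which read below both other controls for 14 of the 16 enzymes. Ductal markers moved with this comparison, their mean over 8 markers lying between 0.38 and 0.96 in chow TRAF3 knockouts and between -0.79 and 0.20 in chow controls. With that score as a covariate the differences of Mvd, Sc5d and Hsd17b7 were 0.62, 0.39 and 0.75, with limma adjusted p of 0.0832, 0.196 and 0.259. Elovl6 (-0.75, limma adjusted p = 0.163) missed the threshold too, and only Mlxipl of the members passed. The ductal score did not overlap between the 2 groups compared. Nor did the mean over 5 beta cell markers, between -1.37 and -0.56 in chow TRAF3 knockouts and between 0.14 and 0.53 in chow controls. The mean over 7 macrophage markers lay between -0.17 and 0.05 in these knockouts and between -1.28 and -0.89 in chow controls. The part of beta cell and macrophage RNA in these calls was not tested.

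**Figure D1:**
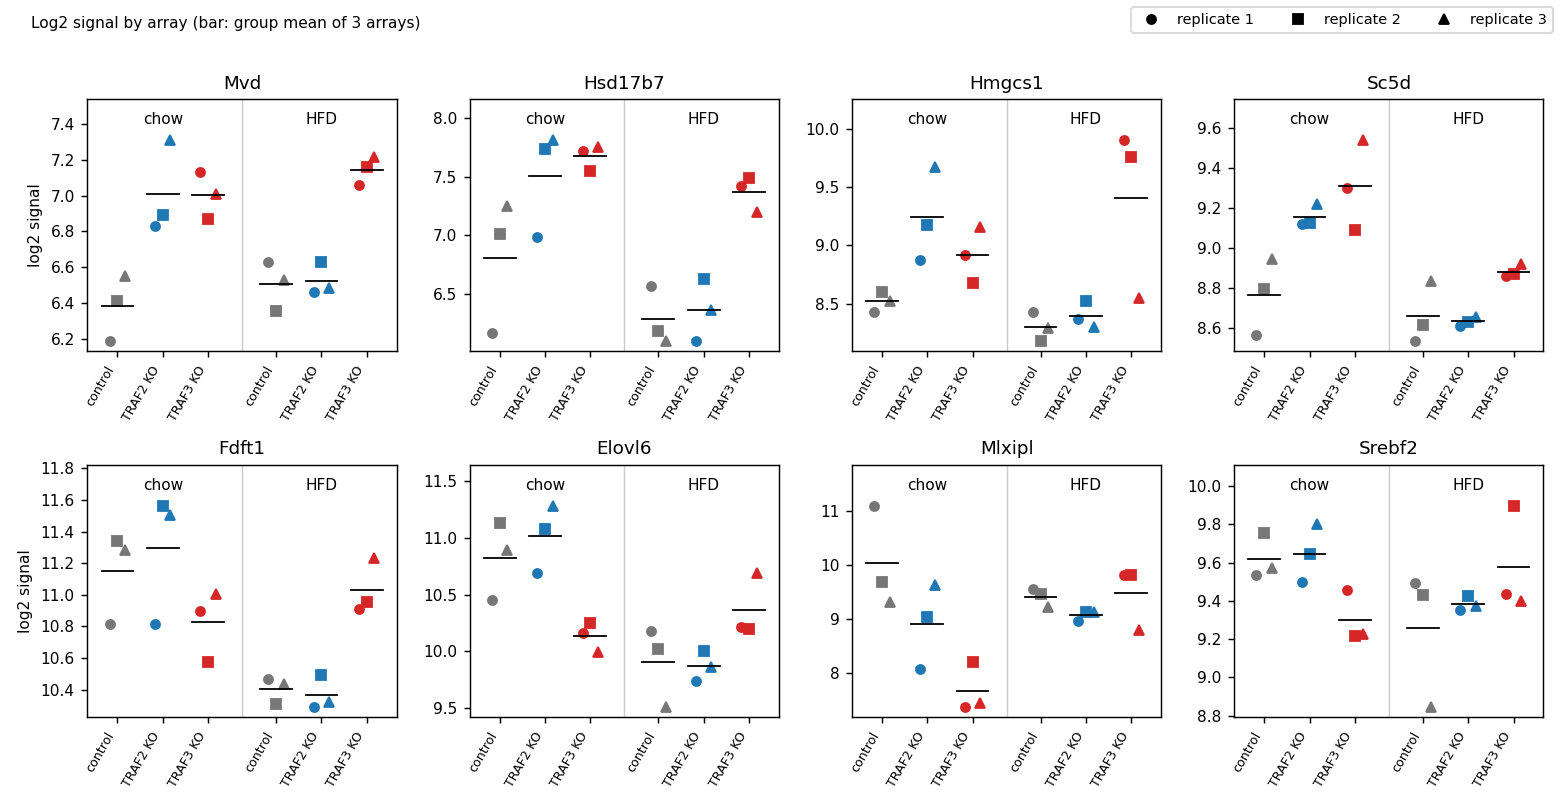
Log2 signal on each array (vertical axes, with a separate range for each gene) of 8 members in the 6 groups, chow on the left and HFD on the right of each panel; symbols mark the replicate number and bars the mean of 3 arrays. Mvd and Hsd17b7 in TRAF3 knockouts lie above controls on both diets, Hmgcs1 is high on 2 of 3 HFD TRAF3 knockout arrays, and Mlxipl is lowest in chow TRAF3 knockouts.

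The promoters of the 4 enzyme genes called in a knockout comparison are shown to set their CCAAT boxes, to which the SREBP partner NF-Y binds, beside their values. Each line gives the 250 bases before the RefSeq transcript start (GRCm38.p6), 5′ to 3′ in the direction of the gene, and capitals mark matches on either strand to CCAAT, to the E-box CACGTG or to the sterol regulatory element core TCACNCCAC. The windows are Mvd at chr8:122443423-122443672 on the minus strand, Hsd17b7 at chr1:169969206-169969455 on the minus strand, Sc5d at chr9:42264301-42264550 on the minus strand and Hmgcs1 at chr13:119690101-119690350 on the plus strand.
Mvd: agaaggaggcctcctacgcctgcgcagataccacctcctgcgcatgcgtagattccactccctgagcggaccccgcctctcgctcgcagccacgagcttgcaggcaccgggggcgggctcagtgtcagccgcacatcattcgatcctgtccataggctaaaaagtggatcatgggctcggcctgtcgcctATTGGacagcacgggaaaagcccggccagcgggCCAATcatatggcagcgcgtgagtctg
Hsd17b7: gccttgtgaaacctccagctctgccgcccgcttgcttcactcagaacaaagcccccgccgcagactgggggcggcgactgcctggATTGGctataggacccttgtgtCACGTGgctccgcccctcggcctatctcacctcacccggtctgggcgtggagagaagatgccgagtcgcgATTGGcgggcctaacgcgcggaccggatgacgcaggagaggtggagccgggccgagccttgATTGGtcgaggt
Sc5d: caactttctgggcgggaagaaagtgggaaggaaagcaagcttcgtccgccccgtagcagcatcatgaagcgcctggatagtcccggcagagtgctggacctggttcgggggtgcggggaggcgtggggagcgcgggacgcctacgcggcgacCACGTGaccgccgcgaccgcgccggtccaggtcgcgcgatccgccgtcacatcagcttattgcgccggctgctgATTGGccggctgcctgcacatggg
Hmgcs1: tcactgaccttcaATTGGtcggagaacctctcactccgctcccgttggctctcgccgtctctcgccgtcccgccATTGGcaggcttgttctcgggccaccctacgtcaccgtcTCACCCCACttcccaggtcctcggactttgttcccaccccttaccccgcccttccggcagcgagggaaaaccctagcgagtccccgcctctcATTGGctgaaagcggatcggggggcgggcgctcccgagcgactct

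Mvd held CCAAT boxes 60 and 27 bases before its start, on opposite strands. Hsd17b7 held 3, at 165, 73 and 12 bases, and an E-box at 143 bases. Sc5d held 1 at 24 bases and an E-box at 98 bases. Hmgcs1, the HMG-CoA synthase, held 3 CCAAT boxes, at 237, 176 and 45 bases, and the only sterol regulatory element core found among the enzymes, at 137 bases. A promoter window was found for 22 of the 27 members and for 13 of the 16 enzymes, and of genes with several windows any window counted. All 13 enzymes held a CCAAT box and 8 held more than 1 (61.5%), against 37.5% and 11.5% of 27025 genes with windows of the same length. Among the other 9 members 6 held a CCAAT box (66.7%). E-boxes were found in 3 of 13 enzymes (23.1%), against 6.86% of all genes, and the sterol core in 1.22% of all genes. A match describes letters in the window, and binding was not measured.

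On HFD, 3 members rose in TRAF3 knockouts relative to HFD controls and none was called lower. They were Hmgcs1 (2.16-fold), Hsd17b7 (2.12-fold) and Mvd (1.56-fold), an early mevalonate step, a sterol step and a late mevalonate step. The background was 1.68% of all genes called higher and 0.848% lower. Of the 16 enzymes 14 had a positive difference, with a median of 0.57, against 46.5% of all genes with a median of -0.02. The mean over 9 acinar markers lay between -1.31 and 0.56 in HFD TRAF3 knockouts and between 0.28 and 0.67 in HFD controls. With that score as a covariate the median was 0.37, and Hmgcs1 (0.82, limma adjusted p = 0.108) and Hsd17b7 (1.08, limma adjusted p = 0.0607) missed the threshold. The mean over 7 macrophage markers lay between -1.06 and 0.20 in HFD TRAF3 knockouts and between 0.19 and 1.06 in HFD controls. The part of macrophage RNA was not tested.

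Mvd read 6.63, 6.36 and 6.53 on the HFD control arrays and 7.06, 7.16 and 7.21 on the HFD TRAF3 knockout arrays. The groups were separated and the knockout arrays close together (0.64 ± 0.14, limma adjusted p = 0.0217, n = 3 per group). Hsd17b7 read 6.57, 6.19 and 6.10 against 7.42, 7.49 and 7.20, with a gap wider than either group's own range (1.09 ± 0.26, limma adjusted p = 0.0347). Hmgcs1 read 8.43, 8.18 and 8.29 in controls and 9.90, 9.76 and 8.55 in knockouts. Knockout replicates 1 and 2 were far above all controls, while replicate 3 was only just above the highest control (1.11 ± 0.27, limma adjusted p = 0.0433). The Hmgcs1 call was lost in 7 of 13 alternatives, among them a sex covariate (1.05, limma adjusted p = 0.0544), and with 14 of 18 arrays left out. That replicate was also the low array of its group for Cyp51, the lanosterol demethylase, which read 8.14, 8.19 and 7.04, and for Stard4, a soluble sterol carrier, which read 7.48, 7.38 and 6.06.

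For 8 of the 16 enzymes the HFD TRAF3 knockout arrays all lay above the HFD control arrays, against 8.61% of all genes, and for 1, Tm7sf2, all lay below. Msmo1, a sterol methyl oxidase, was among the 8, with 8.07, 8.10 and 7.75 in controls and 8.85, 8.84 and 8.61 in knockouts, a difference of 0.79 that missed the threshold. Dhcr7, a reductase at the end of the pathway, read 7.16, 7.27 and 6.74 against 7.76, 7.66 and 7.45, a difference of 0.56 that also missed it. Scd1, which desaturates stearate, differed by 1.00 between means but read 8.47, 9.54 and 10.55 in the knockouts, a range wider than that difference. With a fit on the compared groups alone no member passed, and Mvd, Hsd17b7 and Hmgcs1 had limma adjusted p of 0.154, 0.0525 and 0.296 there. Without HFD control replicate 2, HFD control replicate 3 or HFD TRAF3 knockout replicate 2 no member passed either, while 5 passed without HFD TRAF3 knockout replicate 3.

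No member passed in TRAF2 knockouts against controls on chow or on HFD, by limma, where 0.298% and 0.252% of all genes were called. On chow 7 of the 27 members had an unadjusted p under 0.05, and on HFD 2 did, against 1429 and 1266 of the 22180 genes. On chow all 16 enzymes had a positive difference, with a median of 0.41, against 46.6% of all genes. The largest were Hmgcs1 at 0.72 and Hsd17b7 at 0.70, and Mvd followed at 0.63.

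Mvd on the chow TRAF2 knockout arrays read 6.83, 6.89 and 7.31, all above the chow controls. Hsd17b7 read 6.98, 7.74 and 7.81 there, with replicate 1 inside the control range. Arrays did not overlap for 5 of the 16 enzymes, all higher in the knockout, against 4.68% of all genes higher without overlap. Replicate 1 of the chow TRAF2 knockouts, a female array, read lowest of its group for 14 of 16 enzymes, as did female chow control replicate 1, while the female array of the chow TRAF3 knockouts did so for 2 of 16. Chow TRAF2 knockout replicate 1 also had the highest lymphocyte (2.15) and macrophage (0.43) marker scores and the lowest beta cell score (-0.71) of its group, and their part was not tested. Without chow control replicate 1 the median was 0.18 with 14 positive. With a sex score as a covariate no member passed for TRAF2 on either diet, and the part of sex in these levels was not otherwise tested.

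On HFD the enzymes of TRAF2 knockouts sat near the controls, with 11 of 16 positive and a median of 0.09 that changed sign in 2 of 31 alternative fits. Mvd read 6.46, 6.63 and 6.49 and Hsd17b7 6.10, 6.63 and 6.37 on these arrays, both overlapping the HFD controls. Dhcr7 read 7.59, 7.83 and 7.53 and lay above the controls, with a difference of 0.60 that missed the threshold.

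Averaged over both knockouts and both diets, Mvd and Hsd17b7 rose, against 1.84% of all genes called higher and 0.960% lower. Mvd was higher by 0.48 ± 0.09 (1.39-fold, limma adjusted p = 0.00597), and this call held in all 13 alternatives and with each of the 18 arrays left out. Hsd17b7 was higher by 0.68 ± 0.16 (1.60-fold, limma adjusted p = 0.0284), and its call was lost in 5 of 13 alternatives and with 6 of 18 arrays left out, among them chow control replicate 1 (0.52, limma adjusted p = 0.0792). The average includes TRAF2 knockouts on HFD, where Mvd (mean 6.53, against 6.50 in HFD controls) and Hsd17b7 (6.36, against 6.29) sat near the controls. Of the 16 enzymes 15 had a positive average difference, and Tm7sf2, a sterol reductase, had -0.11. A direct comparison of TRAF3 with TRAF2 knockouts over both diets called no member, against 0.275% of all genes, and 3 members had an unadjusted p under 0.05 in limma, against 2704 of all genes.

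**Figure D2:**
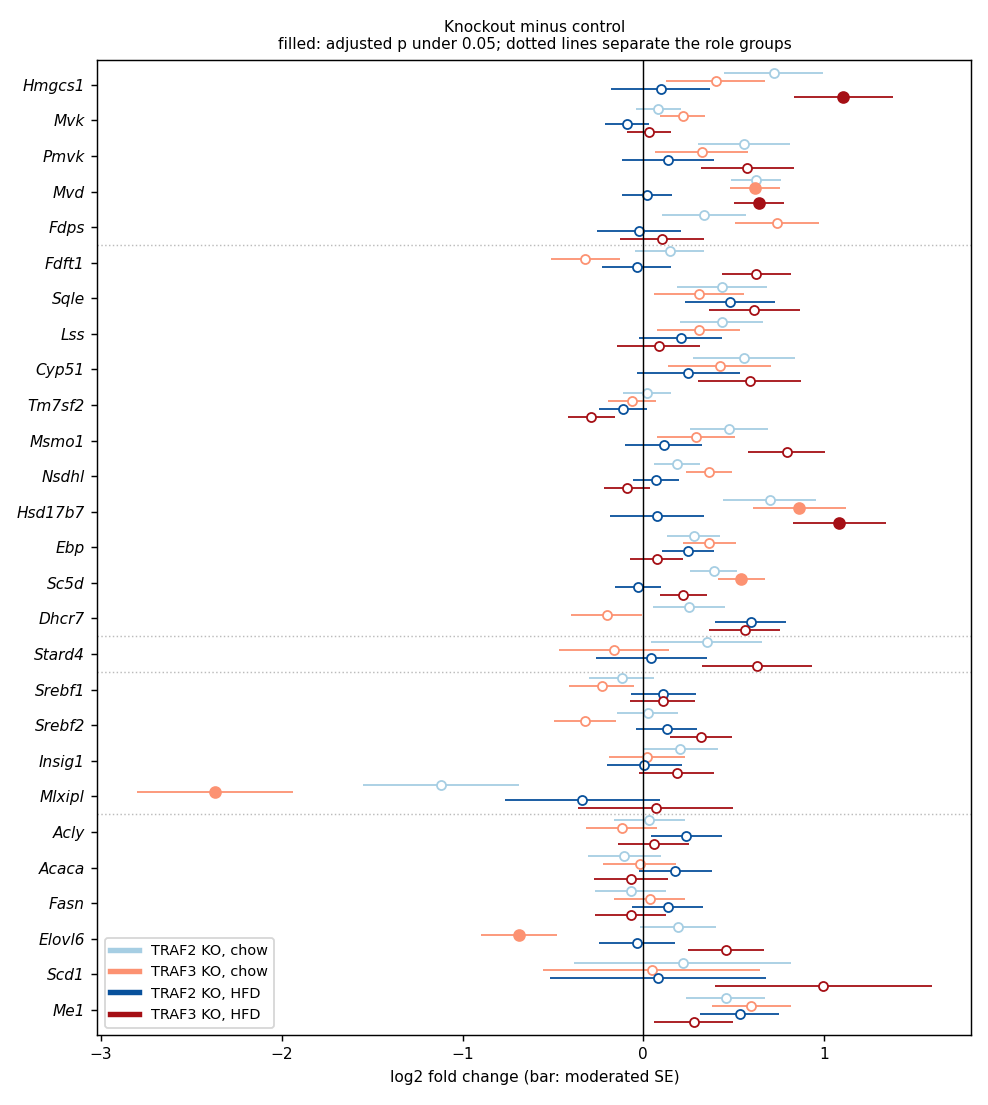
Log2 fold change of knockout against control (horizontal axis) for the 27 measured members, ordered by role as mevalonate enzymes, sterol enzymes, the carrier Stard4, regulators and lipogenic enzymes; bars are moderated standard errors, colours the knockout and diet, and filled points the 8 calls. The enzymes lie mostly right of 0, with the smallest median, 0.09, in TRAF2 knockouts on HFD, and Mlxipl lies far left in chow TRAF3 knockouts.

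In TRAF2 knockouts 5 members fell on HFD relative to chow, 4 of them enzymes of cholesterol synthesis. Pmvk, the phosphomevalonate kinase, fell 2.31-fold, Hsd17b7 2.22-fold, Fdft1 1.90-fold and Sc5d 1.44-fold, and Elovl6 fell 2.21-fold. The background was 1.08% of all genes called lower and 0.884% higher. Of the 16 enzymes 15 had a negative difference, with a median of -0.52, and for 12 all HFD arrays lay below all chow arrays, against 12.2% of all genes.

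Pmvk read 7.25, 7.73 and 7.68 on the chow TRAF2 knockout arrays and 6.44, 6.60 and 6.00 on HFD. The groups lay well apart (-1.21 ± 0.26, limma adjusted p = 0.0236, n = 3 per group). Fdft1 read 10.82, 11.56 and 11.51 on chow and 10.29, 10.49 and 10.32 on HFD, with chow replicate 1 nearest to the HFD arrays (-0.93 ± 0.19, limma adjusted p = 0.0203). Hsd17b7, with the arrays given above, changed by -1.15 ± 0.26 (limma adjusted p = 0.0323). Sc5d read 9.12, 9.12 and 9.22 on chow and 8.61, 8.63 and 8.65 on HFD, with both groups tight (-0.52 ± 0.13, limma adjusted p = 0.0483), but its call was lost with 12 of 18 arrays left out.

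Elovl6, which lengthens palmitate to stearate, read 10.69, 11.08 and 11.28 on chow and 9.74, 10.00 and 9.86 on HFD in TRAF2 knockouts. The groups were separated by more than either group's range (-1.15 ± 0.21, limma adjusted p = 0.0102). No member passed without HFD TRAF2 knockout replicate 3 or without chow TRAF2 knockout replicate 3, and 1, 2 and 1 passed without HFD replicate 1, HFD replicate 2 and chow replicate 2. No member passed with an adipocyte marker score as a covariate. That score, a mean over 9 markers, lay between 0.30 and 0.59 in HFD TRAF2 knockouts and between -0.30 and -0.07 in chow ones, without overlap. Of its members, Adipoq and Lep were near background on all arrays while Lpl and Fabp4 were brighter, and Car3 rose by 2.32. The mean over 7 macrophage markers lay between 0.94 and 1.11 in HFD TRAF2 knockouts and between -0.89 and 0.43 in chow ones. Among them Adgre1, Csf1r and Mrc1 rose by 2.28, 2.14 and 2.94. The part of macrophage RNA was not tested.

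In controls no member was called between HFD and chow by limma, where 0.884% of all genes were called, and 6 had an unadjusted p under 0.05, against 3517 of all genes. Of the 16 enzymes 13 were negative, with a median of -0.29 that was -0.18 without chow control replicate 2 and -0.55 with the adipocyte covariate, and Elovl6 differed by -0.92. Elovl6 read 10.46, 11.13 and 10.89 on chow and 10.18, 10.02 and 9.51 on HFD, without overlap. Without chow control replicate 1, which was low for most enzymes, 5 members passed. The HFD control arrays were all female and 2 of 3 chow controls male, and the mean over 7 macrophage markers lay between 0.19 and 1.06 in HFD controls and between -1.28 and -0.89 in chow ones. Its part in these differences was not tested.

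In TRAF3 knockouts 4 members fell and 1 rose on HFD relative to chow, against 6.01% of all genes called lower and 2.66% higher. Fdps fell 2.07-fold, Nsdhl, a sterol dehydrogenase, 1.64-fold, Sc5d 1.35-fold and malic enzyme Me1, a cytosolic source of NADPH, 1.80-fold. Mlxipl rose 3.52-fold. The 16 enzymes did not move together, with 5 positive and a median of -0.15, and their differences ranged from -1.05 for Fdps to 0.48 for Hmgcs1.

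Nsdhl read 9.51, 9.43 and 9.60 on the chow TRAF3 knockout arrays and 8.88, 8.87 and 8.65 on HFD. The gap exceeded the range of each group (-0.71 ± 0.13, limma adjusted p = 0.00388, n = 3 per group), and the call held in all 13 alternatives and with each of the 18 arrays left out. Fdps read 10.63, 10.59 and 10.61 on chow and 9.81, 9.43 and 9.43 on HFD, with the chow arrays nearly equal (-1.05 ± 0.23, limma adjusted p = 0.0125). Me1 read 9.00, 9.11 and 9.10 against 8.53, 7.99 and 8.16, without overlap (-0.84 ± 0.22, limma adjusted p = 0.0260). Sc5d read 8.86, 8.87 and 8.92 on HFD, below its chow arrays, and was just inside the threshold (-0.43 ± 0.13, limma adjusted p = 0.0499), and its call was lost with 14 of 18 arrays left out. Without HFD TRAF3 knockout replicate 2 and without chow TRAF3 knockout replicate 3, 1 member passed, without chow replicate 1, 2 did and without HFD replicate 1, 3 did. The ductal score lay between 0.38 and 0.96 on chow and between -0.57 and 0.32 on HFD, and with it as a covariate the calls of Fdps (-0.78, limma adjusted p = 0.115), Me1 (-0.58, limma adjusted p = 0.200) and Sc5d (-0.29, limma adjusted p = 0.284) were lost.

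**Figure D3:**
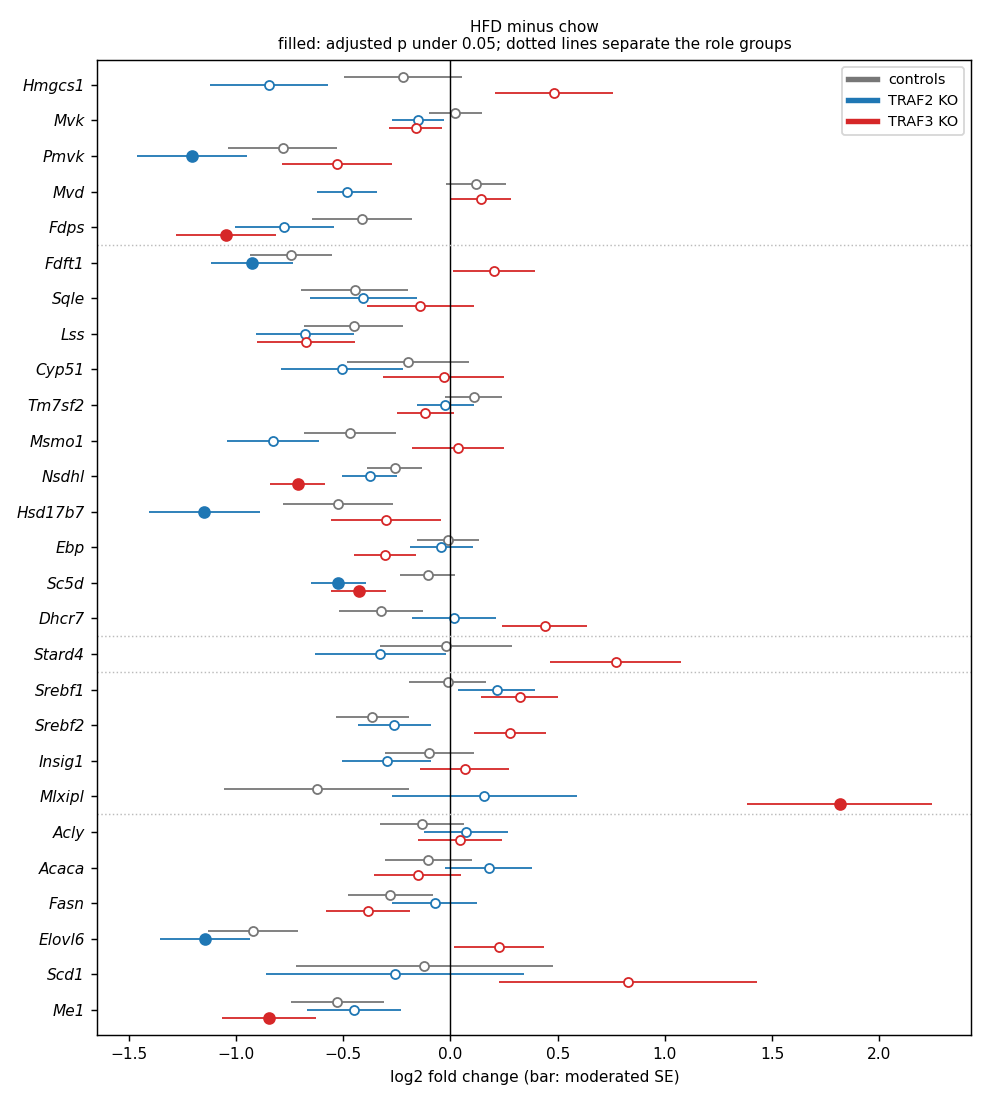
Log2 fold change of HFD against chow (horizontal axis) for the 27 measured members in controls, TRAF2 knockouts and TRAF3 knockouts, in the same order of roles; bars are moderated standard errors and filled points the 10 calls. Fdft1 and Elovl6 lie left of 0 in controls and TRAF2 knockouts and right of 0 in TRAF3 knockouts, where Mlxipl lies at 1.81.

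Whether a knockout changed the response to diet was tested as an interaction. For TRAF2 no gene of the 22180 passed (0%), and 2 members had an unadjusted p under 0.05 in limma, while 628 genes did. For TRAF3, 2 members passed, Mlxipl and Elovl6, both higher, against 2.52% of all genes higher and 3.29% lower. The difference between TRAF3 knockout and control in Elovl6 was -0.69 on chow and 0.46 on HFD, an interaction of 1.15 ± 0.30 (limma adjusted p = 0.0351). Elovl6 read 10.16, 10.25 and 10.00 in chow TRAF3 knockouts, below all chow controls (-0.69 ± 0.21, limma adjusted p = 0.0464), and 10.21, 10.19 and 10.69 in HFD ones, above all HFD controls. The chow call of Elovl6 was lost in 6 of 13 alternatives and with 12 of 18 arrays left out (limma adjusted p up to 0.178), and the interaction in 7 of 13 and with 7 of 18, with differences of one sign throughout (interaction 0.79 to 1.33). The arrays whose omission ended the interaction were HFD TRAF3 knockout 3, chow TRAF3 knockouts 1 and 3, HFD controls 2 and 3 and chow controls 2 and 3 (limma adjusted p from 0.0518 to 0.0946).

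Mlxipl encodes ChREBP, which turns on glycolytic and lipogenic genes when glucose is high. Its promoter is shown because it is the regulator that moved and holds the module's other sterol core. RefSeq gives 2 starts, with windows at chr5:135106641-135106890 and chr5:135089640-135089889, both on the plus strand, printed as above with matches in capitals.
Mlxipl, window 1: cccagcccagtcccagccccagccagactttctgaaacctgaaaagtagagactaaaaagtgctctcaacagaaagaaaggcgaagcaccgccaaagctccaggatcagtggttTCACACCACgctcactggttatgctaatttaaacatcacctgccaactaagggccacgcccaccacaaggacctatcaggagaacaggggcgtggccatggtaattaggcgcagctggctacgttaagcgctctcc
Mlxipl, window 2: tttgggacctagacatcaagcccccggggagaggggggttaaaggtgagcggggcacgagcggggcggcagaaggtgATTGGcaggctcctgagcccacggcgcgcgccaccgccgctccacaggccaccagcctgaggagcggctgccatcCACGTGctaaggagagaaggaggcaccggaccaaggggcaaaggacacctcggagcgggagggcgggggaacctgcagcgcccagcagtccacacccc
The first window held the sterol core 136 bases before the start, and the second a CCAAT box at 173 and an E-box at 98 bases.

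Mlxipl read 11.10, 9.69 and 9.32 in chow controls, 8.08, 9.04 and 9.63 in TRAF2 knockouts on chow and 7.36, 8.20 and 7.44 in chow TRAF3 knockouts. The TRAF3 knockout arrays lay below every control array, and control replicate 1 stood far above the other controls (-2.37 ± 0.43, limma adjusted p = 0.00360, n = 3 per group). The call held in all 13 alternatives and with each of the 18 arrays left out, with differences from -2.73 to -1.30. On HFD it read 9.55, 9.46 and 9.22 in controls, 8.96, 9.12 and 9.14 in TRAF2 knockouts and 9.83, 9.81 and 8.80 in TRAF3 knockouts, the last overlapping the controls. Between diets it rose in TRAF3 knockouts by 1.81 ± 0.43 (limma adjusted p = 0.0170), and the interaction was 2.44 ± 0.61 (limma adjusted p = 0.0294).

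The rise between diets was lost without HFD TRAF3 knockout replicate 1 or 2 or chow TRAF3 knockout replicate 1 or 3 (limma adjusted p from 0.0649 to 0.0850), and the interaction without any of these or HFD control replicate 2 or 3 (0.0532 to 0.0822). Beta cell markers moved with Mlxipl. Of 5 measured, 4 fell in chow TRAF3 knockouts, with Slc30a8 at -1.98, Ucn3 at -2.04 and Mafa at -1.93, and the mean over the list lay between -1.37 and -0.56 there, between 0.14 and 0.53 in chow controls and between -0.10 and 0.38 in HFD TRAF3 knockouts. The part of this shift in the Mlxipl result was not tested. With a ductal marker score as a covariate the difference between diets was 0.85 (limma adjusted p = 0.121).

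Of the sterol-sensing regulators among the members none was called. Srebf1, Srebf2 and Insig1 passed in none of the 11 contrasts by limma. Srebf2 read 9.53, 9.76 and 9.57 in chow controls and 9.46, 9.22 and 9.23 in chow TRAF3 knockouts, a difference of -0.32, and 9.49, 9.43 and 8.85 in HFD controls against 9.44, 9.89 and 9.40 in HFD TRAF3 knockouts, a difference of 0.32. Insig1, itself a target of SREBP, read between 10.12 and 10.97 on all chow arrays and differed between knockout and control by 0.01 to 0.20. Arrays measure transcripts, and the cleavage of the SREBP proteins was not measured.

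The enzymes without a call differed in how far they moved. Mvk, the mevalonate kinase, stayed between 6.73 and 7.24 on all 18 arrays, with knockout differences from -0.09 to 0.22. Ebp, a sterol isomerase, differed by 0.28, 0.37, 0.25 and 0.07 for TRAF2 and TRAF3 on chow and TRAF2 and TRAF3 on HFD. Sqle, the squalene epoxidase, differed by 0.44, 0.31, 0.48 and 0.62 in the same order, and Lss, which closes the sterol rings, by 0.44, 0.31, 0.21 and 0.08. In both, HFD control replicate 3 was the lowest of all arrays, at 8.75 for Sqle and 7.14 for Lss. Stard4 differed by 0.35, -0.16, 0.04 and 0.63.

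The core enzymes of fatty acid synthesis gave no call either. Acly, which makes cytosolic acetyl-CoA, Acaca, the carboxylase, and Fasn, the synthase, had differences between -0.12 and 0.24 in the 4 knockout comparisons, and limma called them in no contrast. Fasn read 9.27, 9.65 and 9.61 in chow controls and 9.54, 9.54 and 9.57 in chow TRAF3 knockouts. Scd1 spread most of all members within groups, with standard deviations up to 1.18 (n = 3), and was not called. Me1 differed by 0.46, 0.60, 0.53 and 0.28 in the 4 knockout comparisons, without a call.

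Members also rose and fell together between arrays of the same group. Over the 18 arrays, with each group's mean removed, the mean pairwise correlation was 0.47 among the 16 enzymes, 0.32 among all 27 members and 0.01 among all genes. It was -0.02 among 6 other cholesterol synthesis genes, 0.03 among ductal markers and 0.93 among acinar markers. Hsd17b7 and Msmo1 followed the other enzymes most closely (mean r of 0.64 and 0.65) and Sc5d least (0.18). The closest pairs were Sqle with Lss, consecutive steps from squalene, at 0.93, and Msmo1 with Hsd17b7 at 0.90. Fasn followed Srebf1 (0.82), as did Lss (0.73). For Mlxipl the correlations with the 16 enzymes averaged 0.00, with 9 positive, and ran from -0.54 with Sc5d to 0.49 with Cyp51. Among the other members Mlxipl reached 0.70 with Stard4 and -0.83 with Scd1. These are descriptions over arrays that share a normalization and groups that mix sexes.

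The array means of the 16 enzymes, taken after centring each gene, ranged from -0.41 to 0.13 in chow controls, 0.07 to 0.54 in chow TRAF2 knockouts and 0.22 to 0.29 in chow TRAF3 knockouts. On HFD they ranged from -0.52 to -0.23 in controls, -0.30 to -0.11 in TRAF2 knockouts and -0.10 to 0.17 in TRAF3 knockouts. The HFD TRAF3 knockout arrays thus all lay above the HFD control arrays, while HFD TRAF2 knockouts overlapped them. Among chow controls as among chow TRAF2 knockouts, the lowest array was the female one.

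**Figure D4:**
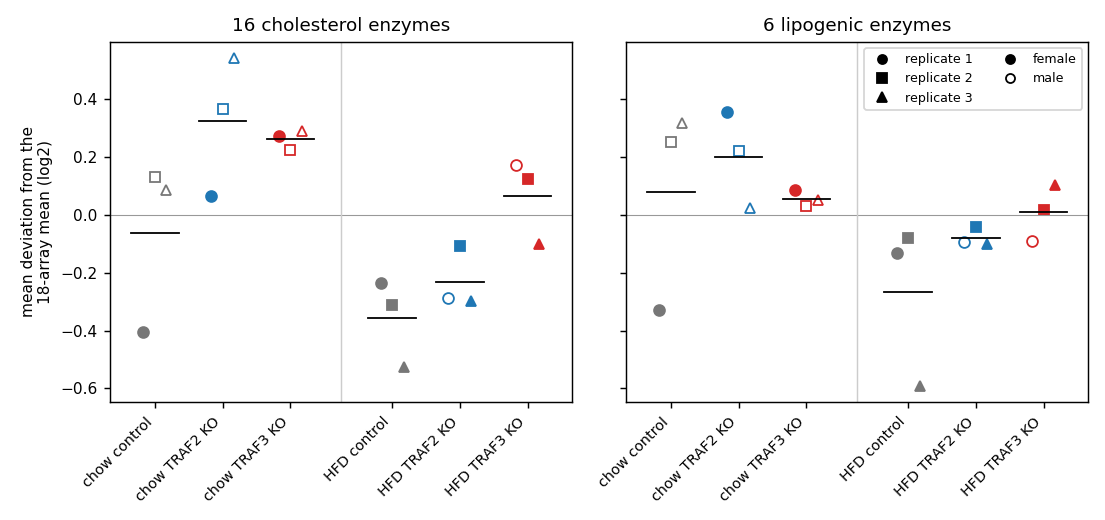
Mean deviation of the 16 cholesterol enzymes (left) and 6 lipogenic enzymes (right) from their 18-array means, in log2 units, for each array in the 6 groups; symbols mark the replicate, filled symbols female and open symbols male arrays by Xist and Y-linked transcripts, and bars group means. Cholesterol enzymes in HFD TRAF3 knockouts lie between -0.10 and 0.17, above HFD controls, and chow control replicate 1 lies at the bottom of its group in both panels.

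Other genes of the pathways were read from 5 further lists. Of 6 other measured cholesterol synthesis genes none was called in any contrast by limma, with at most 2 at an unadjusted p under 0.05. Of 17 genes that control SREBP or ChREBP, Rnf145, a ubiquitin ligase for HMG-CoA reductase, fell in chow TRAF3 knockouts (-0.72 ± 0.16, limma adjusted p = 0.0111) and had an interaction with diet of 1.19. Of all genes 4.69% were called lower in chow TRAF3 knockouts and 2.52% higher in the interaction. Rnf145 read 9.19, 9.47 and 9.19 in chow controls and 8.65, 8.68 and 8.37 in chow TRAF3 knockouts, without overlap. With HFD in TRAF3 knockouts Rnf145 was called higher and Insig2 lower, against 2.66% of all genes called higher and 6.01% lower. The Insig2 call was lost in 9 of 13 alternatives and with 7 of 18 arrays left out, and that of Rnf145 in 6 of 13 and with 9 of 18.

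Of 20 genes of sterol uptake, transport and storage, 2 rose in chow TRAF3 knockouts and none fell, against 6.33% of all genes called higher and 4.69% lower. Ch25h, which makes an oxysterol that holds back SREBP processing, read 4.59, 5.35 and 5.42 in chow controls and 6.87, 6.26 and 6.50 in chow TRAF3 knockouts. The groups lay apart (1.42 ± 0.24, limma adjusted p = 0.00275), and it was also higher over both knockouts and diets (0.69, limma adjusted p = 0.0194). Ch25h was too dim to enter the fit that left out dim genes, and the brighter of its 2 probe sets was taken. Stard3, an endosomal sterol carrier, rose by 0.51, a call lost in 3 of 13 alternatives and with 5 of 18 arrays left out. With HFD in TRAF3 knockouts 5 of the 20 fell, against 6.01% of all genes, among them Ch25h (-0.81) and the receptor Vldlr (-0.76). The Ch25h call was lost in 9 of 12 alternatives and with 12 of 18 arrays left out (limma adjusted p up to 0.203), and that of Vldlr in 4 of 13 and with 4 of 18. With HFD in TRAF2 knockouts Vldlr fell (-0.86) and the sterol hydroxylase Cyp27a1 rose (1.06), against 1.08% of all genes called lower and 0.884% higher. That Vldlr call was lost in 4 of 13 alternatives and with 6 of 18 arrays left out (limma adjusted p up to 0.587). The Cyp27a1 call was lost in 2 of 13 and with 2 of 18 (limma adjusted p up to 0.365).

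Genes of NADPH supply and of fatty acid modification changed in TRAF3 knockouts on chow. Pgd, of the pentose phosphate pathway, read 8.95, 9.46 and 9.28 in chow controls and 10.79, 10.77 and 11.01 in chow TRAF3 knockouts. Its knockout arrays lay far above the controls (1.63 ± 0.24, limma adjusted p = 0.00115). Of 8 NADPH genes, H6pd, which supplies NADPH in the endoplasmic reticulum, rose as well (1.26, limma adjusted p = 0.00245) and the mitochondrial transhydrogenase Nnt fell (-0.63, limma adjusted p = 0.00845). The background was 6.33% of all genes called higher and 4.69% lower. Of 24 other genes of fatty acid and glyceride synthesis 5 rose and 1, Tecr, fell in that comparison, against 6.33% and 4.69% of all genes, led by Fads3, of the desaturase family, at 2.53, Dgat1, which makes triglyceride, at 0.97 and the elongase Elovl1 at 0.80.

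With HFD in TRAF3 knockouts 7 of these 24 fell and none rose, against 6.01% of all genes lower and 2.66% higher, among them Fads3 (-2.50), Fads2 (-0.84) and Agpat2 (-0.81). Of the NADPH genes Pgd (-1.68) and H6pd (-1.03) fell too, while Nnt rose (0.68), a call lost in 1 of 13 alternatives. Fads3 read 9.91, 9.06 and 10.31 on chow and 7.32, 7.03 and 7.41 on HFD in TRAF3 knockouts. Chow TRAF2 knockout replicate 1 was high as well, at 9.06 for Fads3 and 10.36 for Pgd, while the other chow TRAF2 knockout arrays lay at 7.46 and 6.39 and at 9.13 and 9.42. That array also had the highest lymphocyte score of its group (2.15, against -0.51 and -1.12), the highest macrophage score (0.43, against -0.89 and -0.73) and the lowest beta cell score (-0.71, against 0.15 and 0.35), and their part was not tested. In chow TRAF3 knockouts the macrophage markers Cd68 and Cd14 rose by 2.51 and 2.03, and the ductal marker Anxa3 by 2.71. The part of macrophage RNA in these results was not tested. With the ductal score as a covariate the chow calls of Fads3 (1.59), Dgat1 (0.82), Elovl1 (0.41), Mcat, Agpat2, Tecr, Nnt, Rnf145 and Stard3 were lost, and those of Pgd, H6pd and Ch25h still passed. The chow calls of Dgat1 and Agpat2 were lost in 2 and 8 of 13 alternatives, and that of Tecr in 6 of 13.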

How the data were processed

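The values analysed are the authors' deposited log2 signals, 1 per probe set and array, from 18 arrays and 41345 probe sets. Per the submitters' processing notes RMA and limma were used, without versions, and no genome build is given in the sources used here. RMA corrects background, normalizes between arrays and summarises probes, which compresses small differences of dim probes. Values were used as deposited, without a filter on low signals, and all 27 members were among the 11090 brightest genes. The number of arrays limits the precision.

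Probe sets with exactly 1 symbol in the platform's annotation were kept (23521, against 1814 with several and 16010 with none), and the probe set of highest mean was taken per gene. Groups came from the sample labels. One fit of 6 group means was made in limma 3.58.1 (R 4.3.3) with lmFit and default eBayes (12 residual and 3.69 prior degrees of freedom), with 11 contrasts, two-sided tests and Benjamini-Hochberg adjustment over 22180 genes. The procedure was tested on simulated data. All measured members are named. Called members are given by array, and up to 4 called genes per further list by size. The members and lists were chosen with earlier results of these data known. The series text names TRAF2 for both knockouts, so genotypes follow the sample labels. TRAF3's own transcript is left unreported here.

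Same-numbered replicates were checked for pairing: deviations from group means correlated between -0.55 and 0.53 over 45 pairs, with 16 above 0.1. Differently numbered arrays were not set beside them, so the check cannot show whether the numbers pair the samples. The main fit has no replicate block. The alternatives were 11 other fits, each array left out, and 2 fits added after seeing the data. Marker and enzyme scores are means of gene-centred log2 values. Promoter windows were matched by symbol in RefSeq's GRCm38.p6 table.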

Additional observations from a re-analysis of the deposited data

Results flagged for a closer look

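The difference between TRAF3 knockout and control itself differed between the diets, by limma's interaction test, for 2 of 27 members and 8 genes of the further lists. Those lists held 6, 17, 20, 24 and 8 measured genes. Of all genes 2.52% were called higher and 3.29% lower in this test. Mlxipl (2.44) and Elovl6 (1.15) had more positive differences on HFD than on chow, as described above, and so had Rnf145 (1.19). The opposite was found for Fads3 (-3.02), Pgd (-1.84), the acyltransferase Agpat2 (-0.85), the desaturase Fads2 (-0.80), the mitochondrial fatty acid synthesis genes Oxsm (-0.78) and Mcat (-0.72), and Stard3 (-0.70). The interaction call was lost for Fads2 in 10 of 13 alternatives and with 14 of 18 arrays left out, for Stard3 in 9 of 13 and with 15 of 18, for Mcat in 5 of 13 and with 9 of 18, for Oxsm in 4 of 12 and with 8 of 18 and for Agpat2 in 3 of 13 and with 5 of 18. For Fads3 it was lost in 1 of 13 and with 1 of 18, and for Pgd and Rnf145 in 1 of 13, while both held with each of the 18 arrays left out. Groups of 3 arrays were not screened for single arrays standing apart.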

How the results depend on the processing

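No direction reversed among the 22 member calls over 11 other settings, 18 omissions of 1 array and 2 alternatives chosen after seeing the data, but most counts of members called moved. In the order TRAF3 on chow, TRAF3 on HFD, both knockouts, HFD in TRAF2 knockouts, HFD in TRAF3 knockouts and TRAF3 interaction, main counts were 5, 3, 2, 5, 5 and 2. Omitting 1 array gave 2 to 6, 0 to 5, 1 to 4, 0 to 7, 1 to 6 and 0 to 4, and 0 to 5 for HFD in controls. Centring arrays gave 1 for TRAF3 on HFD, 3 for HFD in TRAF2 knockouts and 1 for the interaction. Testing every probe set gave 3 for TRAF3 on chow, 1 on HFD, 1 for both knockouts, 3 for HFD in TRAF2 knockouts and 0 for the interaction. Fitting the compared groups alone gave 2, 0, 3 and 1 for TRAF3 on chow, on HFD, HFD in TRAF2 knockouts and the interaction. Leaving out dim genes gave 1 for TRAF2 on chow, 4 for both knockouts and 1 for HFD in controls, and trend with robust eBayes 1 for HFD in controls. The adipocyte covariate gave 3, 1, 1, 0 and 0 for TRAF3 on chow, on HFD, both knockouts, HFD in TRAF2 knockouts and the interaction. The ductal covariate gave 1 for TRAF3 on chow, 1 for both knockouts, 2 for HFD in controls and 2 for HFD in TRAF3 knockouts. The acinar covariate gave 1 for TRAF3 on HFD, 4 for both knockouts and 1 for HFD in controls. Without HFD control 3 and HFD TRAF3 knockout 3 together, 1 passed for TRAF3 on HFD and 8 for HFD in TRAF3 knockouts. Without the male HFD arrays, which left 2 arrays in each HFD knockout group, the counts were 3, 0, 1, 0, 3 and 0 in the order above. The causes were not tested, beyond fewer samples or another number of genes where the alternative itself sets these. Quantile normalization and a sex covariate moved no count by over 1.5 times. Nor did the replicate block, which gave 5, 2, 3, 5, 5 and 3 and lost only the Hmgcs1 call on HFD (limma adjusted p = 0.0638). Whether the replicate numbers pair the samples is not known.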
